A study of Arabidopsis thaliana with 29 samples.

Results

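The metallothionein genes MT1A (AT1G07600), MT1C (AT1G07610), MT2A (AT3G09390), MT2B (AT5G02380) and MT3 (AT3G15353) of Arabidopsis thaliana were followed through a drought. These 5 genes were chosen by their locus identifiers among the 33681 loci of the expression table, with no use of their values. RNA sequencing measured transcript levels in whole plants of the accession Col-0, written Col0 here, and of the mutant pp7l, which carries a lesion in the PP7L gene. Sample labels name the allele pp7l-2 and the description of the series names pp7l-1, so the allele is not settled and the mutant is written pp7l. Plants grown under long days in soil were about 3 weeks old when watering stopped, and they were harvested after 0, 6, 9, 12 or 15 days without water (0 D, 6 D, 9 D, 12 D and 15 D). Each genotype and day holds 3 libraries, except Col0 at 6 D with 2, which gives 14 libraries of Col0 and 15 of pp7l. No group of watered plants of the later ages was analysed here, so a change from 0 D covers both the lack of water and the added days of age.

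Metallothioneins are small proteins rich in cysteine that bind copper, zinc and other metals through their thiol groups. Plants carry several types, which differ in how the cysteines are arranged: in Arabidopsis MT1A and MT2B are known mainly from the phloem, MT2A and MT3 from mesophyll cells, and the MT4 type from seeds. In plants they are known for holding copper in living cells and for metal recovery from leaves that senesce.

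In the RefSeq annotation of TAIR10.1 all 5 genes are short, and 2 features of their models limit what the values can separate. MT1A and MT1C are neighbours on chromosome 1, with 2125 bases between the ends of their models: MT1A lies at chr1:2338904-2339321 on the minus strand and MT1C at chr1:2341447-2342148 on the plus strand. Their coding sequences are 138 bases each and 94.9% identical, and the capitals in the lines that follow mark the 7 bases at which they differ. They are shown because reads from either gene can be told apart only at these bases or outside the coding part.
MT1A: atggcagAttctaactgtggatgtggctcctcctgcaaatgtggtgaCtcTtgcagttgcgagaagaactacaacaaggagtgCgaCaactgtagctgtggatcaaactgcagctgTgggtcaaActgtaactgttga
MT1C: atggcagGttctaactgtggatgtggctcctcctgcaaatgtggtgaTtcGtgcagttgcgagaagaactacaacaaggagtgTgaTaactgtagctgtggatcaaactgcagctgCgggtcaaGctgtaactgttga
The longest run that both transcripts share is 39 bases. MT1A shares a longer run, of 86 bases, with MT1B (AT5G56795), a metallothionein gene outside the 5. Reads from that run cannot be told apart between MT1A and MT1B. MT1A has a model of coding sequence alone, and all 138 of its exonic bases are also exonic, though not coding, in the longer protein-coding locus AT1G07590 on the same strand. A read from MT1A can therefore also be placed on AT1G07590, and the level of MT1A is uncertain. MT2A at chr3:2889406-2890574 and MT2B at chr5:506498-507244, both on the minus strand, are 79.7% identical in their coding bases and share no run over 17 bases. MT3 lies at chr3:5180642-5181586 on the minus strand. The span of MT3 meets the antisense noncoding gene AT3G03105 over 278 bases and the end of COX17 (AT3G15352), which encodes a mitochondrial copper chaperone on the plus strand, over 24 bases. The longest transcripts of MT3 and COX17 share no exonic base, and it is not given in the sources used here whether the quantification used the strand of the reads.

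The 250 bases before the transcript starts of MT2A, MT2B and MT3 are given next, because these 3 genes hold most metallothionein transcripts and went different ways. Capitals mark CACGTG (the G-box, whose letters read the same on both strands and which holds ACGTG, the core of abscisic acid response elements, on each strand) and GTAC (the core of copper response elements, also the same on both strands).
MT2A, chr3:2890575-2890824, minus strand: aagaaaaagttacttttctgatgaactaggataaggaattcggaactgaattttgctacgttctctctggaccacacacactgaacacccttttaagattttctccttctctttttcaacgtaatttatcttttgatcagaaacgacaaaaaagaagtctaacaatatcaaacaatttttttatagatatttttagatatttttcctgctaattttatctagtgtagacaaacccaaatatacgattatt
MT2B, chr5:507245-507494, minus strand: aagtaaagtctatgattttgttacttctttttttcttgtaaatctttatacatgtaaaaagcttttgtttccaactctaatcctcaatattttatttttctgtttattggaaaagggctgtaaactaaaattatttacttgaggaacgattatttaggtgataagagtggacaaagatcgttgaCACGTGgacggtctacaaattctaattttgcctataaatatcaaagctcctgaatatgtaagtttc
MT3, chr3:5181587-5181836, minus strand: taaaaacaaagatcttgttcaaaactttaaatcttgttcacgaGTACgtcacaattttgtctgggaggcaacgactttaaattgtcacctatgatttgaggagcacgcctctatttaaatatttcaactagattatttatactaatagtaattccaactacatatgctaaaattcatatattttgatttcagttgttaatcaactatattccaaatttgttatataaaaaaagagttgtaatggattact
In windows from 250 bases before to 50 after the start, MT2B held 1 CACGTG beginning at position -66, MT1A held 1 at position -138 of its model, and MT2A, MT3 and MT1C held none. MT3 held 1 GTAC at position -207 and none of the other 4 genes held one. Among the windows of 27443 protein-coding genes of the same length, 26.7% held ACGTG, 7.7% held CACGTG and 39.0% held GTAC on either strand. MT2A held none of the 3 motifs in its window. These matches describe letters only, and binding was not measured.

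Levels are in TPM, the authors' deposited unit, which gives a gene's share of all transcripts of a library after correction for transcript length. The depth behind a value is unknown because the values come without reads. PP7L (AT5G10900) was near 0 in both genotypes, with group means from 0.105 to 1.03 TPM in Col0 and from 0.586 to 1.58 TPM in pp7l. It was not lower in pp7l and does not check the labels. Loci above 0 ranged from 17976 to 22769 per library. Plastid transcripts held 70.7% to 74.8% of TPM in Col0 at 0 D and 13.7% to 38.2% at 15 D, but 60.2% to 63.5% in pp7l at 15 D. Loci of nuclear rRNA took 25.0% of the total in replicate 3 of Col0 at 12 D, and 27.5% and 61.2% in replicates 1 and 3 of Col0 at 15 D. The single locus AT1G15405 took 3.34% to 3.72% of TPM in Col0 at 0 D and 10.9% to 16.1% at 12 D. At 15 D it took 14.3%, 46.0% and 16.9% in Col0 and 7.48% to 10.5% in pp7l. It is counted among the nuclear loci without rRNA, so shares of that total move with it too. Col0 6 D replicate 1 stood apart, with 17976 loci above 0, 86.7% plastid TPM and a rank correlation across loci of 0.876 with its group mate, against 0.948 to 0.977 in the other groups. Because such shares move every other value, each log2 change is also given relative to the median of all loci where that matters, or after median-of-ratios scaling, which sets the typical locus to little or no change. The deposited column headers number the libraries as brep, and the labels do not say whether these are separate plants or pots, so the p-values measure the spread between these libraries.

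MT2B, MT3 and MT2A were abundant in every group, while MT1A and MT1C were low at the start. Over all 29 libraries MT2A ranged from 106 to 4705 TPM with a median of 562 TPM, MT3 from 30.4 to 2530.2 TPM with a median of 1287 TPM, and MT2B from 419 to 1626 TPM with a median of 929.8 TPM. MT1A ranged from 0 to 65.8 TPM and was at 0 in 3 libraries, and MT1C ranged from 1.20 to 23.9 TPM. Together the 5 genes made up 0.938 ± 0.141% of TPM of nuclear loci without rRNA in Col0 at 0 D and 1.20 ± 0.00960% on day 12 (SD, n = 3). The family held 0.530 ± 0.0351% in pp7l before the drought and 1.12 ± 0.111% after 15 D (SD, n = 3). All 5 genes passed the filter for testing, 1 TPM or more in 3 or more libraries, as did 18757 loci in all.

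**Figure D1:**
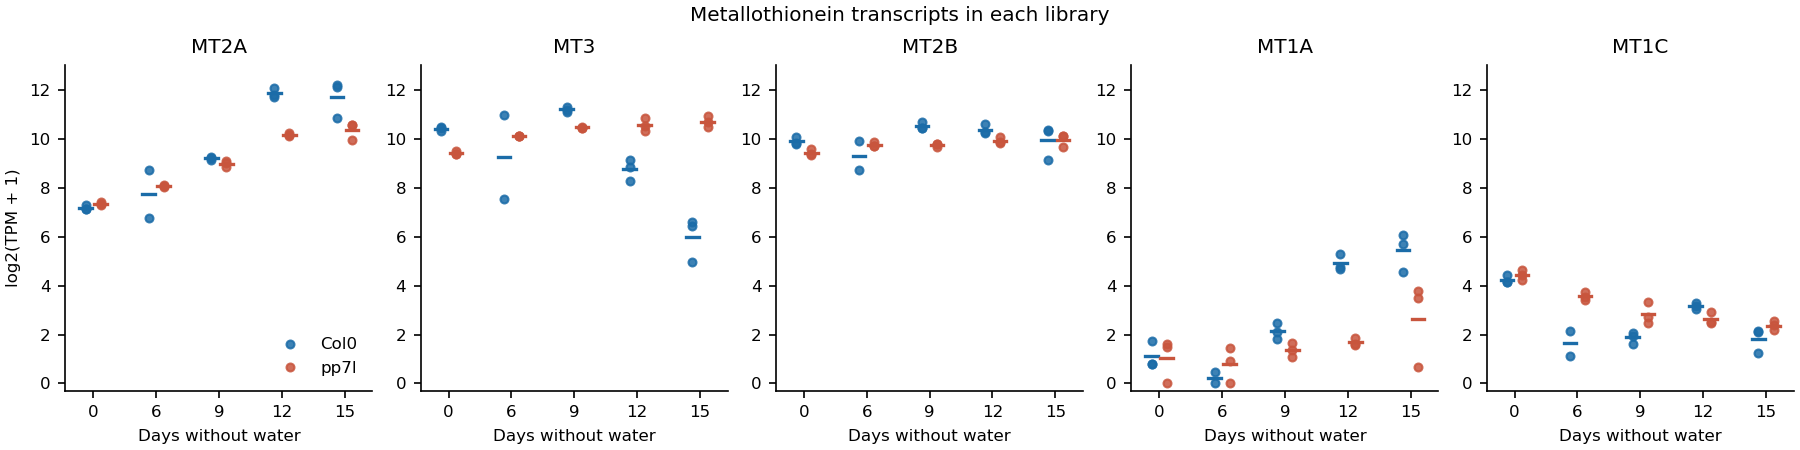
Transcript level of each of the 5 genes as log2(TPM + 1) against days without water; each point is a library (blue Col0, red pp7l) and each bar the mean of the plotted values. MT2A climbs in both genotypes, MT3 falls in Col0 after 9 D and stays high in pp7l, and MT2B keeps between 419 and 1626 TPM.

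The calls in a fit across all loci differed between days and genotypes. A gene is called at an adjusted p under 0.05 (limma, Benjamini-Hochberg over all tested loci), and the share of all tested loci that were called is given as the background of each count. In Col0 against its 0 D, 1 of 5 genes was called at 6 D (background 25.3%), 2 at 9 D (67.7%), 4 at 12 D (73.8%) and 4 at 15 D (51.3%). In pp7l against its own 0 D the test called 1 gene at 6 D (21.4%), 2 genes at 9 D (32.7%), 2 genes at 12 D (44.1%) and 4 genes at 15 D (55.0%). The 4 days of a genotype share the 0 D libraries. At 12 D in Col0 the called loci were 61.9% higher and 11.9% lower of all tested, and after scaling 35.1% were higher and 34.5% lower. The 5 metallothionein genes were 2 higher, 2 lower and 1 not called, and after scaling MT2B was called lower too. Counts over 5 genes against backgrounds this high say little about the family as a group, and the values of each gene follow.

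MT2A, a type 2 metallothionein that binds copper, had the largest log2 rise of the 5 genes at 12 D in both genotypes and became a leading nuclear transcript of dry Col0. In Col0 it stood at 139, 137 and 155 TPM at 0 D, at 598, 562 and 600.3 TPM at 9 D, and at 3364, 4264 and 3531 TPM at 12 D. It then stood at 4396, 4705 and 1857 TPM at 15 D. All libraries of 9 D lay above all of 0 D, and all of 12 D and 15 D above those of 9 D. Among nuclear loci its rank went from 159.7 ± 24.4 at 0 D to 6 in each library of 12 D (SD, n = 3). The log2 change from 0 D was 2.03 ± 0.38 at 9 D, 4.68 ± 0.38 at 12 D and 4.55 ± 0.38 at 15 D (SE), with adjusted p of 5.33e-05, 3.89e-11 and 1.16e-10. The change at 12 D is 25.6-fold on the log2(TPM + 1) scale, and 3.71 on the log2 scale relative to the median locus. Without the 3 libraries high in rRNA the change at 12 D was 4.71. At 15 D only replicate 2 of Col0 was then left, with a change of 5.03.

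In pp7l MT2A rose as well. It stood at 158, 168 and 156 TPM at 0 D, at 509, 548 and 464 TPM at 9 D and at 1209, 1107 and 1141 TPM at 12 D. At 15 D the values were 1499.9, 1499 and 992 TPM. The libraries of 9 D, 12 D and 15 D all lay above those of 0 D, and none of pp7l reached those of Col0 at 12 D or 15 D. The log2 change was 1.65 ± 0.38 at 9 D (adjusted p = 0.00178), 2.84 ± 0.38 at 12 D (adjusted p = 2.70e-06) and 3.02 ± 0.38 at 15 D (SE; adjusted p = 9.34e-07). All these calls of MT2A also passed after median-of-ratios scaling, with log2 changes of 0.65, 3.16 and 5.30 in Col0 and 1.07, 2.13 and 2.14 in pp7l. At 6 D neither genotype passed: the change was 0.56 ± 0.43 in Col0, whose libraries held 106 and 423 TPM, and 0.74 ± 0.38 in pp7l (SE; adjusted p = 0.356 and 0.169). Without replicate 1 of Col0 at 6 D the first was 1.55, and without replicate 3 it was -0.43, each with 1 library left in that group.

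By mean level the order of the groups for MT2A began with Col0 at 12 D (3719.6 TPM) and Col0 at 15 D (3653 TPM), whose libraries overlap. Next came pp7l at 15 D (1330.3 TPM) and 12 D (1152 TPM), which overlap too, then Col0 at 9 D (587 TPM), pp7l at 9 D (507 TPM) and pp7l at 6 D (269 TPM), each of them apart from the group before. Col0 at 6 D (264 TPM) overlaps both its neighbours, and pp7l at 0 D (161 TPM) and Col0 at 0 D (144 TPM) are last.

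MT3, a type 3 metallothionein of leaf cells, fell in Col0 after 9 D, while its levels in pp7l at 9 D, 12 D and 15 D overlapped. In Col0 it stood at 1398, 1259 and 1406 TPM at 0 D and at 2530.2, 2191 and 2329.9 TPM at 9 D. It fell to 558, 455 and 312 TPM at 12 D and to 95.2, 86.2 and 30.4 TPM at 15 D. The 9 D libraries lay above all of 0 D, those of 12 D below all of 0 D, and those of 15 D lower still. The log2 change from 0 D was 0.79 ± 0.51 at 9 D (SE; adjusted p = 0.168, not called), -1.65 ± 0.51 at 12 D (adjusted p = 0.00502) and -4.40 ± 0.51 at 15 D (adjusted p = 4.05e-08). At 9 D the change was -0.07 relative to the median locus, and after scaling -0.58 (adjusted p = 0.0623). Both later falls passed after scaling, with -3.17 and -3.66. Without the 3 libraries high in rRNA the fall at 12 D also passed, with -1.42. At 15 D only replicate 2 of Col0 was then left, with a change of -3.96. At 6 D the libraries held 184 and 2019 TPM, and the change of -1.15 ± 0.57 was not called (SE; adjusted p = 0.141). Without replicate 3 of Col0 at 6 D it was -2.87. Without replicate 1, the library that stood apart, it was 0.58, so its direction at 6 D depends on the library kept. The spread between the 6 D libraries of Col0 also enters the SE of 0.51 of the other MT3 changes, which is pooled over all groups.

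Between 9 D and 12 D in Col0, a comparison added after the values were seen, MT3 fell by 2.45 on the log2 scale (SE 0.51, adjusted p = 0.000295). Over the same step MT2A changed by 2.65, MT1A by 2.79 and MT1C by 1.28, all called, so that 4 of 5 genes were called against a background of 44.9%. MT2B changed by -0.15 ± 0.33 (SE) and was not called.

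In pp7l MT3 did not fall. It stood at 658, 723 and 667 TPM at 0 D, at 1390.5, 1440.1 and 1403 TPM at 9 D and at 1821, 1287 and 1466 TPM at 12 D. At 15 D it stood at 1435, 1632 and 1949 TPM, and every library of 9 D to 15 D lay above those of 0 D. The log2 change of 1.05 ± 0.51 at 9 D and of 1.14 ± 0.51 at 12 D was not called (SE; adjusted p = 0.115 and 0.0691). That of 1.28 ± 0.51 at 15 D was called at an adjusted p of 0.0351. The SE of 0.51 is pooled over all groups, among them Col0 at 6 D, whose libraries held 184 and 2019 TPM. It is thus not a measure of the spread within pp7l alone. Fits of only the groups compared called more of the metallothionein genes in pp7l at 9 D and 12 D. The missing calls on these days therefore do not show that MT3 was unchanged in pp7l. The call at 15 D ended when any 1 of the 6 compared libraries was left out (adjusted p from 0.0513 to 0.0994) and after scaling (0.40, adjusted p = 0.217).

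For MT3 the order of groups began with Col0 at 9 D (2350.3 TPM), apart from all others. Then came pp7l at 15 D (1672 TPM), 12 D (1525 TPM) and 9 D (1411 TPM) and Col0 at 0 D (1354 TPM), each of which overlaps the next. They were followed by pp7l at 6 D (1105 TPM) and Col0 at 6 D (1101 TPM), and by pp7l at 0 D (683 TPM). Col0 at 6 D spans this range, with libraries at 184 and 2019 TPM. Col0 at 12 D (442 TPM) and 15 D (70.6 TPM) were each below every library of the group before.

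The balance of MT3 and MT2A within a library does not depend on how the library is scaled. In Col0 the log2 ratio of MT3 to MT2A was 3.18 to 3.33 in the 3 libraries of 0 D and 2.08, 1.96 and 1.96 at 9 D. It turned to -2.59, -3.23 and -3.50 at 12 D and to -5.53, -5.77 and -5.93 at 15 D. MT3 was thus the more abundant of the pair by 9.44 ± 0.556 times at 0 D, and MT2A by 53.9 ± 7.45 times at 15 D (SD, n = 3). In pp7l the ratio was between 2.06 and 2.11 in the 3 libraries of 0 D, 0.59, 0.22 and 0.36 at 12 D, and -0.06, 0.12 and 0.97 at 15 D. The 2 genotypes did not overlap in this ratio at 0 D, 9 D, 12 D or 15 D, with Col0 higher at 0 D and 9 D and lower at 12 D and 15 D. Across libraries, on the log2 scale after scaling, MT2A and MT3 correlated at r = -0.92 within Col0 (14 libraries) and r = 0.64 within pp7l (15 libraries); libraries of a day share their condition, so these values only describe the pattern.

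**Figure D2:**
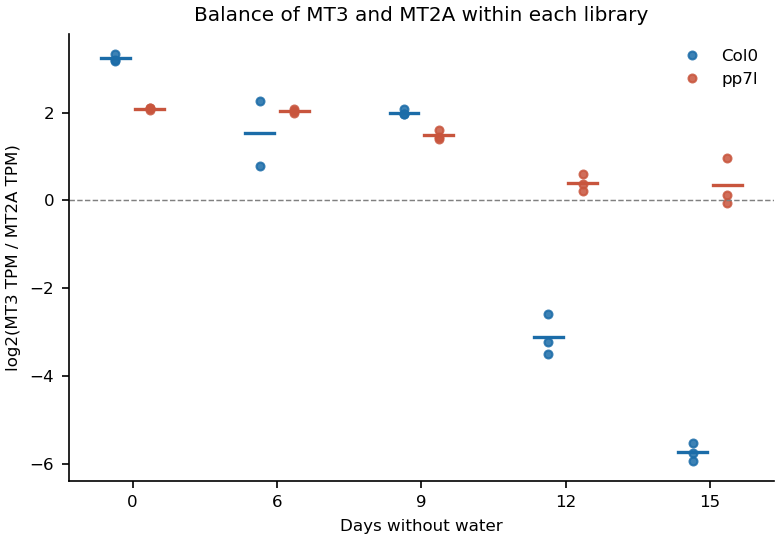
Log2 ratio of MT3 to MT2A TPM within each library against days without water (blue Col0, red pp7l, bars for means, dashed line for equal levels). Col0 passes from 3.18 or more at 0 D to -5.53 or less at 15 D, while pp7l ends near equal levels.

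MT2B, the other type 2 metallothionein and known from phloem, had the narrowest range of the 5 genes relative to its level. In Col0 it stood at 878, 910.0 and 1088 TPM at 0 D, at 1626, 1391 and 1385 TPM at 9 D and at 1229, 1573 and 1189 TPM at 12 D. The values at 15 D were 1280.3, 1316 and 559.6 TPM. All libraries of 9 D and 12 D lay above those of 0 D, and those of 15 D overlap them. In pp7l the libraries of all days lay between 645 and 1117 TPM. With all 29 libraries in the fit, MT2B was called in none of the 18 comparisons on TPM as deposited. Without the 3 libraries high in rRNA it was called in Col0 at 9 D against 0 D (0.62, adjusted p = 0.0268) and between pp7l and Col0 at 9 D (-0.77, adjusted p = 0.0281). Fits of only the groups compared also called MT2B in several comparisons, Col0 at 9 D among them (adjusted p = 0.00242). Its log2 change in Col0 was 0.62 at 9 D (95% interval -0.06 to 1.30), 0.47 at 12 D (-0.21 to 1.15) and 0.04 at 15 D (-0.64 to 0.72). Since the median locus rose by 0.86 at 9 D and by 0.97 at 12 D, the direction turned after median-of-ratios scaling, to -0.76 (adjusted p = 0.00190) and -1.05 (adjusted p = 3.46e-05), and at 15 D it was 0.79 (adjusted p = 0.000744). No direction of MT2B is therefore given for Col0.

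**Figure D3:**
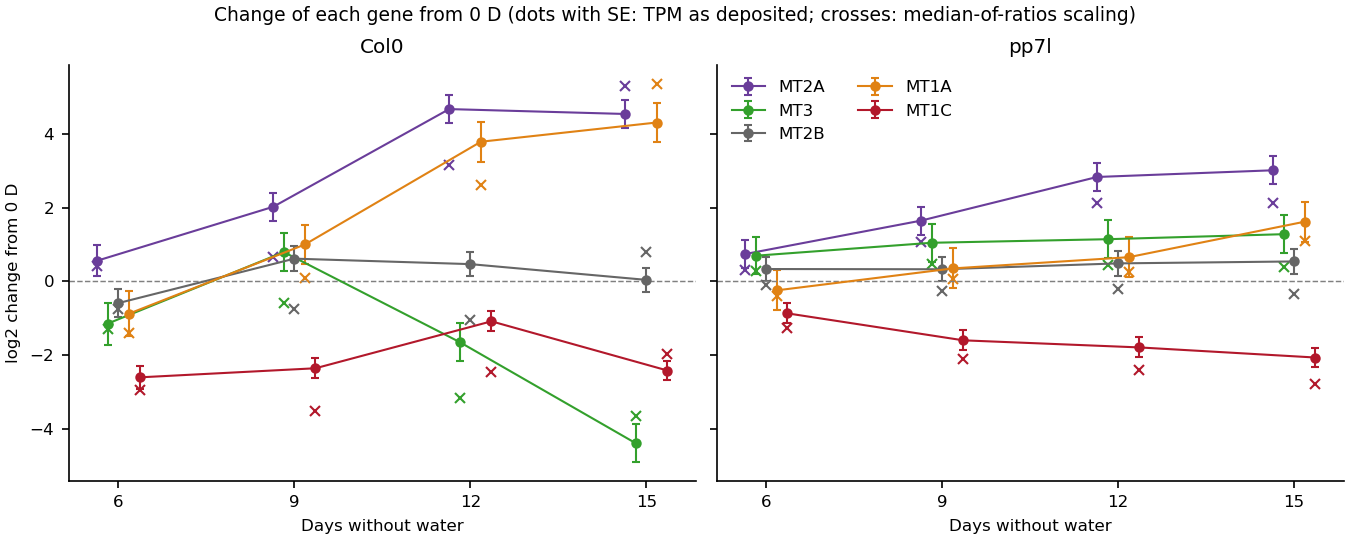
Log2 change of each gene from 0 D on log2(TPM + 1), in Col0 (left) and pp7l (right), against days without water; dots with bars are limma estimates with SE on TPM as deposited, and crosses the estimates after median-of-ratios scaling. MT2A is positive on every day, MT1C is negative on every day, and the crosses of MT2B change side in Col0.

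MT1C, a type 1 metallothionein, fell in both genotypes from the first day sampled. In Col0 it stood at 20.6, 16.7 and 16.8 TPM at 0 D, at 1.20 and 3.38 TPM at 6 D, and at 3.23, 2.05 and 2.87 TPM at 9 D. On day 12 it stood at 7.22, 8.69 and 7.92 TPM, and on day 15 at 3.25, 3.41 and 1.35 TPM. No library of a later day reached those of 0 D, and 12 D lay above 6 D, 9 D and 15 D. The log2 change on days 6, 9, 12 and 15 was -2.61 ± 0.30, -2.36 ± 0.27, -1.09 ± 0.27 and -2.42 ± 0.27 (SE), all called, with adjusted p of 0.000790 or less. In pp7l it went from 17.9, 20.7 and 23.9 TPM at 0 D to 10.6, 9.73 and 12.4 TPM at 6 D and to 3.50, 4.17 and 4.91 TPM at 15 D. The log2 change there was -0.87 ± 0.27 at 6 D (adjusted p = 0.0228), -1.60 ± 0.27 at 9 D, -1.80 ± 0.27 at 12 D and -2.07 ± 0.27 at 15 D (SE; adjusted p = 9.63e-05, 1.30e-05 and 1.54e-06). The fall at 6 D in pp7l ended without pp7l 0 D replicate 2 or 3 or without pp7l 6 D replicate 1 or 2 (adjusted p from 0.0633 to 0.0853).

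MT1A, the near copy of MT1C, was higher in Col0 from 12 D on, with the doubt about its gene model given above. It stood at 0.758, 0.757 and 2.34 TPM at 0 D, at 24.6, 26.1 and 38.6 TPM at 12 D and at 65.8, 50.6 and 22.7 TPM at 15 D. The libraries of both later days lay above all of 0 D, 6 D and 9 D. The log2 change was 3.79 ± 0.54 at 12 D (adjusted p = 6.07e-07) and 4.32 ± 0.54 at 15 D (SE; adjusted p = 1.66e-07), and both passed after scaling (2.62 and 5.36). In pp7l it stood at 0, 1.81 and 2.03 TPM at 0 D and at 12.7, 10.3 and 0.589 TPM at 15 D, so that the groups overlap. The log2 change of 1.62 ± 0.54 there was called (SE; adjusted p = 0.0138), but not after scaling (adjusted p = 0.0979), nor without pp7l 0 D replicate 1 or pp7l 15 D replicate 1 or 2 (adjusted p from 0.0919 to 0.123).

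AT1G07590, which contains MT1A, was at 118 ± 7.08 TPM in Col0 at 0 D, 280.3 ± 63.1 TPM at 12 D and 123 ± 62.4 TPM at 15 D (SD, n = 3). Its log2 change was 1.21 ± 0.35 at 12 D (adjusted p = 0.00264) and -0.12 ± 0.35 at 15 D (SE; adjusted p = 0.796), against 3.79 and 4.32 for MT1A. Whether reads of AT1G07590 make up part of the MT1A level was not tested. When MT1A and MT1C were summed before the fit, the pair stood at 19.3 ± 1.96 TPM in Col0 at 0 D, 6.16 ± 1.12 TPM at 9 D, 37.7 ± 7.80 TPM at 12 D and 49.0 ± 22.9 TPM at 15 D (SD, n = 3). The summed pair fell by 1.51 on the log2 scale at 9 D and rose by 0.92 at 12 D and 1.18 at 15 D in Col0 (adjusted p = 0.000707, 0.0251 and 0.00787). In pp7l the sum fell by 1.38, 1.43 and 0.93 at 9 D, 12 D and 15 D (adjusted p = 0.00490, 0.00253 and 0.0319).

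**Figure D4:**
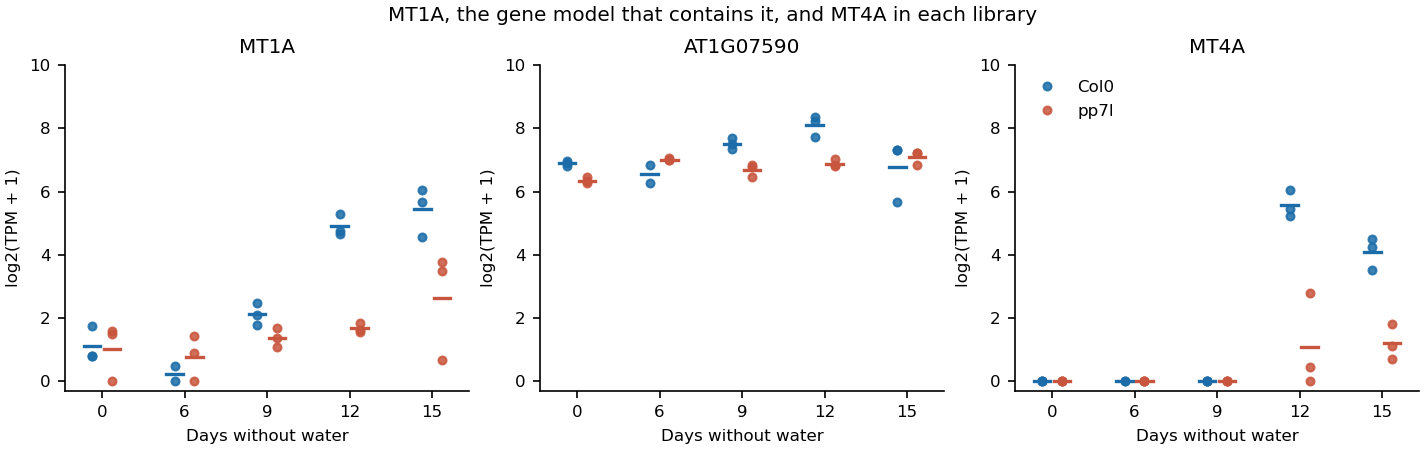
Levels as log2(TPM + 1) of MT1A, of AT1G07590, the locus that contains it, and of MT4A against days without water; points are libraries (blue Col0, red pp7l) and bars means. MT1A and MT4A are high in Col0 at 12 D and 15 D, while AT1G07590 stays between 50.6 and 331 TPM in Col0.

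The genotypes were compared day by day to show where pp7l departs from Col0. At 0 D limma called none of the 5 genes between them (background 20.2%) and none at an unadjusted p under 0.05, with MT3 at -0.99 (95% interval -2.03 to 0.06) and MT2B at -0.48 (-1.16 to 0.20) in pp7l. The libraries of the genotypes did not overlap for either gene at 0 D. After scaling both were lower in pp7l, MT3 by -1.56 (adjusted p = 7.71e-05) and MT2B by -1.05 (adjusted p = 0.000207). At 6 D and 9 D 1 gene was called, MT1C, with 1.93 ± 0.30 and 0.95 ± 0.27 higher in pp7l on the log2 scale (SE; adjusted p = 8.48e-05 and 0.0158; backgrounds 28.8% and 14.6%). The MT1C call at 9 D ended without Col0 9 D replicate 2 or pp7l 9 D replicate 1 (limma, adjusted p = 0.0966 and 0.134). At 6 D MT1C differed by 1.44 without Col0 6 D replicate 1 and by 2.43 without replicate 3, each with 1 Col0 library left.

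At 12 D and 15 D, 3 genes were called between the genotypes (backgrounds 42.5% and 81.9%): MT1A and MT2A were lower in pp7l and MT3 was higher. MT2A differed by -1.68 ± 0.38 at 12 D and -1.37 ± 0.38 at 15 D (SE; adjusted p = 0.000780 and 0.00189). MT3 differed by 1.81 ± 0.51 at 12 D and 4.69 ± 0.51 at 15 D (SE; adjusted p = 0.00528 and 9.22e-09), the latter 25.9-fold, with no overlap between the libraries of the 2 genotypes on either day. MT1A differed by -3.23 ± 0.54 and -2.79 ± 0.54 (SE; adjusted p = 2.32e-05 and 4.31e-05). Without pp7l 15 D replicate 3, in which MT1A was at 0.589 TPM, the difference at 15 D was -1.80. These 6 calls passed after scaling, where MT3 differed by 2.05 and 2.50.

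The changes from 0 D themselves differed between the genotypes for the same 3 genes. At 9 D limma called 0 of 5 genes in this test and 0 at an unadjusted p under 0.05 (background 15.6%). At 12 D and 15 D it called 3 (backgrounds 41.6% and 54.4%). The difference in change, pp7l minus Col0, was, for MT3, 2.80 ± 0.72 at 12 D and 5.68 ± 0.72 at 15 D (SE; adjusted p = 0.00317 and 9.66e-07). For MT2A it was -1.84 ± 0.54 and -1.53 ± 0.54 (SE; adjusted p = 0.00787 and 0.0192), and the call at 15 D ended without Col0 15 D replicate 2 or pp7l 15 D replicate 3 (adjusted p = 0.0534 and 0.0594). After scaling, the differences at 12 D and 15 D were 3.61 and 4.07 for MT3, -1.03 and -3.16 for MT2A and -2.36 and -4.26 for MT1A, all called. For MT1A it was -3.14 ± 0.77 and -2.70 ± 0.77 (SE; adjusted p = 0.00211 and 0.00509). With a pseudocount of 0.1 TPM neither MT1A difference passed (adjusted p = 0.112 and 0.146), and without pp7l 15 D replicate 3 that at 15 D was -1.71. In the step from 9 D to 12 D, added after the values were seen, 4 of 5 genes differed between genotypes (background 23.4%), with MT3 at 2.54 ± 0.72 (SE; adjusted p = 0.0105). MT2A passed there at -1.47 (adjusted p = 0.0477) but not with the replicate number as a block (adjusted p = 0.0612) nor with any 1 of the 12 libraries left out (adjusted p from 0.0570 to 0.106). MT1A passed at -2.49 (adjusted p = 0.0186) but not without the libraries high in rRNA (adjusted p = 0.0583), nor with a pseudocount of 0.1 TPM (adjusted p = 0.258).

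Samples also differed in tissue markers, whose part in these results was not tested. Of all tested loci, 61.9% were called higher and 11.9% lower in Col0 at 12 D, and 37.8% and 6.31% in pp7l at 12 D. Summed over 7 root markers, TPM was 0.0713 to 24.4 in Col0 and 24.7 to 73.3 in pp7l over all days, although all samples are labelled as whole plants. Of those that passed the filter, PYK10 was 4.52 higher on the log2 scale in pp7l at 12 D. NRT2.1 was 0.81 higher, and CASP1, at 0.31, was not called (limma, adjusted p = 0.162). The gap in the sum at 12 D thus lies mainly in PYK10. The 7 mesophyll photosynthesis genes all fell in Col0 at 12 D, with a summed level of 27526 ± 4519 TPM at 0 D and 1511 ± 320.3 TPM at 12 D (SD, n = 3), and 6 of 7 fell in pp7l. Of 6 phloem companion cell markers 4 rose and 1 fell in Col0 at 12 D, and after scaling 3 were higher and 2 lower. Among them AHA3, a plasma membrane proton pump, went from 2.29 ± 0.767 to 130.2 ± 24.1 TPM (SD, n = 3). Among the 5 senescence markers 4 rose in Col0 at 12 D, including NAC092, a regulator of leaf senescence, from 0.658 ± 0.162 to 63.5 ± 13.6 TPM (SD, n = 3), and 3 rose in pp7l. Of the 6 floral organ genes all rose in Col0 at 9 D and 12 D, with sums of 21.3 to 37.5 TPM. At 9 D 64.8% of all loci were called higher, and at 12 D 61.9%. After scaling AG was not called at 12 D (0.02, adjusted p = 0.892). In pp7l at 12 D 1 rose, AP3, which was not called after scaling (adjusted p = 0.0976). The floral sum at 0 D was 0.736 to 1.38 TPM in Col0 and at most 0.477 TPM in pp7l. The floral genes thus passed the filter mainly through later libraries. That partly fixed a rise in advance, the more so in Col0 at 9 D and 12 D, where the sums were highest. All 9 seed genes rose in Col0 at 15 D, with a sum of 132 to 389 TPM, against 16.7% of all loci called higher. None rose in pp7l at 15 D, where 49.3% of all loci were called higher. Outside Col0 at 12 D and 15 D the seed sum was at most 1.59 TPM in any library. These genes thus passed the filter only through Col0 libraries of those days, which largely fixed their rise there in advance. In RNA of whole plants, fewer cells of a type and less RNA per cell cannot be told apart.

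Of the 3 other metallothionein genes only MT4A (AT2G42000), a seed-type zinc-binding metallothionein, passed the filter. It was listed at 0 in every library of both genotypes through 9 D. In Col0 it stood at 42.9, 65.7 and 36.9 TPM at 12 D and at 18.0, 21.7 and 10.4 TPM at 15 D, and in pp7l at 0.369, 5.95 and 0 TPM at 12 D and 1.19, 2.51 and 0.635 TPM at 15 D. Every Col0 library of the last 2 days lay above every pp7l library, and the genotypes differed at 12 D (limma, adjusted p = 9.23e-10) and at 15 D (adjusted p = 4.87e-07). The SE of 0.40 behind these p-values is pooled over all groups, among them those at 0 in every library. It is thus not the spread within the groups compared. MT4A was high in Col0 at 12 D, when 2 of 9 seed genes had risen, with a summed seed level of 6.63 to 30.7 TPM. MT1B and MT4B stayed at or below 0.792 TPM in every library.

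Genes of metal handling, from lists chosen by function, moved in both directions in Col0 at 12 D, where the median locus rose by 0.97 on the log2 scale and 61.9% of all loci were called higher. Of 19 tested copper genes 7 rose and 6 fell, with a median change of 0.05. COX17, the neighbour of MT3, went from 3.03 ± 0.450 to 45.4 ± 14.1 TPM (SD, n = 3; log2 change 3.48, adjusted p = 8.68e-09), and PETE2, the main plastocyanin, from 1405 to 1794 TPM down to 62.3 to 85.1 TPM (log2 change -4.50, adjusted p = 1.02e-08). In pp7l at 12 D, 4 copper genes rose and 1 fell, against 2 higher and 8 lower after scaling, and COX17 was not called. The copper-transporting ATPase RAN1 changed by 2.79 and the regulator of copper deficiency SPL7 by 2.31 in Col0, named after their values were seen.

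Of 12 tested iron genes 8 rose in Col0 at 12 D and none fell, with a median of 1.08, which is near the share and the median of all loci. The ferritin FER2, which stores iron in seeds, went from 0.215 ± 0.186 to 25.2 ± 6.93 TPM (SD, n = 3; log2 change 4.41, adjusted p = 2.31e-13). Among 11 zinc genes 5 rose and none fell, a smaller share than among all loci, with a median of 0.28, the largest in BZIP23, a regulator of zinc deficiency, from 0.739 ± 0.190 to 11.3 ± 3.51 TPM (SD, n = 3; adjusted p = 4.50e-09). Of 6 genes that make the metal ligands glutathione, phytochelatin and nicotianamine 3 rose and 2 fell, with GSH1, the first enzyme of glutathione synthesis, from 10.9 ± 2.41 to 45.5 ± 8.67 TPM (SD, n = 3; adjusted p = 1.45e-05). After scaling, the counts at 12 D were 5 higher and 12 lower for copper, 7 and 4 for iron, 3 and 6 for zinc and 2 and 3 for the ligand genes, so the direction of zinc, copper and ligand lists depends on the scaling.

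The loci whose levels ran most like each gene over the 29 libraries, out of 3950 nuclear loci with a mean of at least 10 TPM, are a description on scaled log2(TPM + 1) values. For MT2A they were AT4G19390 (r = 0.978), the transcription factor NAC102 (AT5G63790, 0.977) and ZIFL1 (AT5G13750, 0.971), a transporter of the zinc-induced facilitator-like family. For MT3 they were a lipid transfer protein gene (LTP, AT2G15050, 0.98), RGF9 (AT5G64770, 0.965), which encodes a peptide of the root meristem growth factor family, and BTI3 (AT5G41600, 0.959). For MT2B they were AT1G36980 (0.961), AT3G52105 (0.953) and AT4G30993 (0.946). For MT1A they were AT2G37110 (0.958), AT2G01540 (0.954) and AT3G12510 (0.953). MT1C had the lowest values, with the chloroplast thioredoxin reductase NTRC (AT2G41680, 0.907), the stress-enhanced protein gene SEP1 (AT4G34190, 0.891), which is not the floral gene of that symbol, and AT2G04700 (0.876). The 29 points share 10 conditions and are not independent.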

How the data were processed

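RNA was sequenced from 29 libraries of whole plants with Illumina TruSeq kits, per the labels' protocols. Per the submitters' processing notes, Trimmomatic, FastQC, Salmon and the build TAIR10 were used; versions and the strand setting are not given in the sources used here. The authors deposited TPM values, which were used as they stand: each library's values cover nuclear, plastid and mitochondrial loci together. Counts were not used here, so depth and counting error are unknown.

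Tests were made with limma 3.58.1 in R 4.3.3 on log2(TPM + 1), with a model of 10 group means over 29 libraries (19 residual degrees of freedom), an intensity trend and Benjamini-Hochberg adjustment over 18757 loci. Fold changes on this scale understate changes of low genes. Of 18 comparisons, 16 were planned and 2 were added after the values were seen. Simulated data with known changes in a small set of loci served to test the procedure. They held no shift of composition and no outlying library, so they do not test the fit under those conditions. Gene models, promoters and 32954 matching locus names came from RefSeq TAIR10.1, a later release than TAIR10. No amino acid sequences were used here. Plots were made in Python 3.11.15 (matplotlib 3.10.9).

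The genes, the lists and the tests were chosen with earlier results of these data known. The naming rule gave the 5 genes, the 3 loci most like each, and allowed, for lists described, the largest called rise and fall in Col0 at 12 D with a group mean of at least 10 TPM; not all of these are named. RAN1 and SPL7 fall outside it. Replicate numbers were checked for pairing in 37 pairs of same-numbered libraries after removal of group means. Of these, 4 correlated by more than 0.1, and in 1 of 13 comparisons, pp7l versus Col0 at 15 D, all pairs did (0.124 to 0.265). The numbers were taken to pair libraries in that comparison alone, where the block changed no call. As alternatives, the fit was repeated with a pseudocount of 0.1, without the filter, with median-of-ratios scaling, on nuclear loci alone, on only the groups compared, with libraries left out, with a replicate block, and with MT1A and MT1C summed.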

Additional observations from a re-analysis of the deposited data

Results flagged for a closer look

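The changes from 0 D differed between the genotypes by a test of the difference itself, given as pp7l minus Col0 on the log2 scale. At 12 D this was -3.14 for MT1A, -1.84 for MT2A and 2.80 for MT3. At 15 D it was -2.70 for MT1A, -1.53 for MT2A and 5.68 for MT3. In the step from 9 D to 12 D, added after the values were seen, it was -2.49 for MT1A, -1.47 for MT1C, -1.47 for MT2A and 2.54 for MT3. After scaling, the differences at 15 D were -4.26 for MT1A, -3.16 for MT2A and 4.07 for MT3. MT3 fell in Col0, no fall was called in pp7l, and MT2A rose in both. Tissue markers, plastid and rRNA shares differ between the genotypes at these days, and their part was not tested.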

How the results depend on the processing

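The number of the 5 genes called moved by more than 1.5 times in these cases. With median-of-ratios scaling it was 3 for Col0 6 D, 2 for pp7l 15 D, 2, 2 and 5 between genotypes at 0 D, 9 D and 15 D, and 1 and 5 for the difference in change at 9 D and 15 D. With nuclear loci without rRNA rescaled it was 2 for Col0 6 D, 2 for pp7l 6 D, 1 between genotypes at 0 D and 1 for the difference at 9 D. In fits of only the 2 groups it was 0 for Col0 6 D (1 at an unadjusted p under 0.05 in limma), 5 for Col0 9 D, 4, 4 and 4 for pp7l 6 D, 9 D and 12 D, and 2, 0 (1 unadjusted) and 4 for the genotypes at 0 D, 6 D and 9 D. These fits also called more of all loci for pp7l 6 D and 9 D and for the genotypes at 0 D and 9 D, as given below. For Col0 9 D and pp7l 12 D the count of all loci in such fits is not given here. The higher counts are therefore not a result about the 5 genes. A pseudocount of 0.1 TPM gave 0 for pp7l 6 D (1 unadjusted) and 2 for the difference from 9 D to 12 D. Summing MT1A and MT1C gave 0 for pp7l 6 D and 0 for the genotypes at 9 D (1 unadjusted in each). Without the 3 libraries over 20% rRNA the genotypes at 9 D gave 2. Leaving out 1 library gave 1 to 3 for Col0 6 D, 0 to 1 for pp7l 6 D, 2 to 3 for pp7l 15 D, 1 to 4 and 0 to 1 for the genotypes at 6 D and 9 D, and 2 to 3 for the difference from 9 D to 12 D. Where a Col0 6 D library was left out, 1 library remained in that group, so such counts at 6 D rest on it. The cause of these moves was not tested.

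The direction turned with scaling for MT2B in Col0 at 9 D (-0.76) and 12 D (-1.05), between genotypes at 15 D in MT1C (-1.18) and MT2B (-2.18), and for the difference at 15 D in MT1C (-0.82) and MT2B (-1.13). The sum of MT1A and MT1C went against MT1A in Col0 at 9 D (-1.51) and in pp7l at 9 D, 12 D and 15 D (-1.38, -1.43 and -0.93). It went against MT1C in Col0 at 12 D (0.92) and 15 D (1.18), between genotypes at 15 D (-1.93) and in the difference at 15 D (-2.11). The replicate block ended 1 single call, MT2A in the difference from 9 D to 12 D (-1.47, adjusted p = 0.0612), where 3 in place of 4 genes were then called, and changed no other call.

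The number of all loci called was 4754 for Col0 6 D, against 10069 with scaling, 9675 with nuclear loci and 0 in the 2 groups alone (2602 unadjusted), and 5407 for the genotypes at 6 D, against 0 (2119 unadjusted) and 727 to 13033 with 1 library left out. For pp7l 6 D it was 4010 (2673 with the lower pseudocount, 9655 in 2 groups), for pp7l 9 D 6139 (10662 in 2 groups), and for the genotypes 3794 at 0 D (6579 scaled, 7634 in 2 groups) and 2746 at 9 D (1769 with the lower pseudocount, 7399 in 2 groups). For the difference from 9 D to 12 D it was 4392 (2744 with the lower pseudocount). Depth is unknown and limits MT1A and MT1B most, since values near 1 TPM cannot be set against a counting error.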
